A study of Saccharomyces cerevisiae with 2 samples.

Results

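Heterozygous deletion strains for 55 genes of the ATP-dependent chromatin remodelling complexes of Saccharomyces cerevisiae were examined, out of 5325 gene symbols on the tag array. The genes were chosen by name as subunits of RSC, SWI/SNF, INO80, SWR1, the ISW complexes and CHD1, not by a threshold on the measured values. Of the 55, 52 gave 1 value per array on both arrays, among 5219 such strains in all. RSC30 was not listed among the array's gene symbols, and ARP9 and IOC3 each had 2 probe pairs that could not be assigned to 1 strain.

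Per the labels, a pool of 5896 haploid-convertible diploid knockout strains, each lacking 1 copy of a gene, received either a tub1D::URA3 cassette, which removes 1 copy of TUB1, or a ura3D::URA3 cassette as the control. Both pools grew for 2 days at 30 °C on medium lacking uracil, and the molecular tags of the strains were amplified from genomic DNA, labelled with Cy5 (control) and Cy3 (tub1), and hybridised together. The 2 arrays, experiment 1 and experiment 2, form 1 group and share the dye orientation, and the labels do not say whether they came from separate transformations, so an SD or p-value here measures how far these arrays differ, and that difference may be technical. All strains in both pools are heterozygous, so a ratio reports 1 remaining copy of a remodeller gene and not its absence. Each strain carries 2 tags, called first and second because the files do not tell upstream from downstream, and so has 4 tag values. Values are log2 ratios whose sign was left as deposited and from which the median of their array and tag set was subtracted. The labels do not state the direction. A positive ratio probably marks a strain with fewer tags in the tub1 pool, as the dyes and the scanner program's customary red over green would give, but the TUB1 strain, which would have settled it, held 0 values for its 2 probes. The number of arrays limits the precision, and spot brightness was not used here.

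ATP-dependent remodellers use the energy of ATP to slide, evict or exchange histones. RSC is an abundant remodeller needed for growth that keeps promoters free of nucleosomes, and yeast RSC mutants are known for defects in chromosome segregation and sensitivity to microtubule-depolymerising drugs. SWI/SNF is its less abundant relative, built on homologous subunits and dispensable for growth. INO80 and SWR1 act on the histone variant Htz1, SWR1 by placing it into nucleosomes, while Isw1, Isw2 and Chd1 space nucleosomes along genes. TUB1 encodes the main alpha-tubulin of microtubules.

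On both arrays 4 remodeller strains reached a positive ratio of 2-fold or more, and all 4 were RSC strains: RSC9, RSC8, RSC4 and RSC1. For RSC9, which encodes a DNA-binding ARID-domain subunit, the first and second tags stood at 1.79 and 1.43 on array 1 and at 2.33 and 1.75 on array 2. Its log2 ratio was 1.83 ± 0.31 (SD, n = 2 arrays), or 3.55-fold, rank 4 of 5219. All 4 of its tag values were more than 2-fold positive, and array 2 was higher for either tag. RSC8 encodes the homologue of Swi3, a scaffold protein with SWIRM and SANT domains. Its tags read 1.61 and 1.06 on array 1 and 1.71 and 1.38 on array 2, with a ratio of 1.44 ± 0.15, or 2.71-fold. The first tag of RSC8 was above the second on both arrays, and no value came near 0.

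RSC4, whose tandem bromodomains bind acetylated histone tails, had tag values of 1.25 and 1.0 on array 1 and of 1.86 and 1.34 on array 2, the lowest lying on the 2-fold line. Its ratio of 1.36 ± 0.33 placed it at rank 14. RSC1 encodes a bromodomain subunit found in the form of RSC that lacks its close relative Rsc2. The RSC1 tags read 1.19 and 1.21 on array 1 and 0.96 and 1.27 on array 2, so 1 of the 4 values was just under 2-fold, and the ratio was 1.16 ± 0.06 (rank 32). RSC1 tags had 6 spots each, whereas those of RSC9, RSC8 and RSC4 had 1 spot each. The SD over the 6 spots lay between 0.11 and 0.21 for the 4 tag values of RSC1. The 4 strains therefore did not overlap 0 in any tag on either array.

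These 4 RSC strains made up 10.5% of the 38 strains of the whole pool with such a ratio, which are 0.728% of all strains. On the other side of that line the next remodeller strain was BDF1, whose array nearer to 0 read 0.57, against 1.11 for RSC1. RSC4, RSC8 and RSC9 were also 3 of the 21 strains (0.405% of those with all 4 values) in which every tag value was at least 2-fold positive, RSC4 by its value on the line.

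None of the remodeller strains passed limma's test. With Benjamini-Hochberg adjustment over 5219 strains, 0 were called positive and 0 negative, the background being 0% in either direction. The adjusted p was 0.229 for RSC9, RSC8, RSC4 and RSC1, the smallest value in the data and shared by 717 strains. At an unadjusted p under 0.05, 6 of 52 remodeller strains were positive (RSC1, RSC4, RSC8, RSC9, ARP6 and BDF1; 9.12% of all strains) and 5 negative (NPL6, SWI3, SNF6, ARP5 and IOC4; 11.7% of all strains). When both tags of each array entered limma separately with the array as a random block, 5 remodeller strains were called positive, RSC1 (adjusted p 0.0217), RSC8 and RSC9 (0.0236 each), RSC4 (0.0288) and BDF1 (0.0404), where 6.71% of all strains were. SWI3 was the 1 negative call there (adjusted p 0.0476), against 3.18% of all strains. That fit counts the same tag on 2 arrays as unrelated. Its estimated correlation within an array was -0.29. A negative correlation narrows the standard error, so these adjusted p-values may be too small. With the tag set as the block, chosen after seeing the data, 0 remodeller strains were called, and over all strains 0.0192% were positive and 0.0383% negative.

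**Figure D1:**
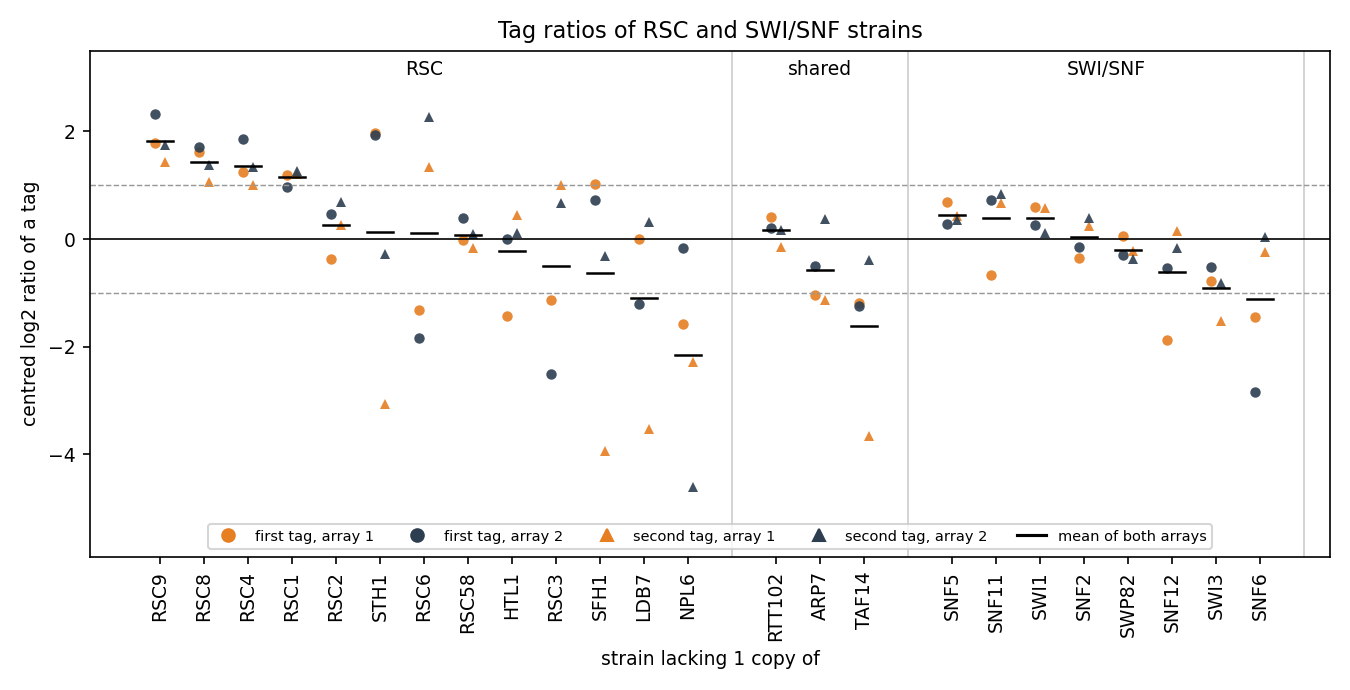
Centred log2 ratio (vertical axis) of each tag of the RSC strains, the SWI/SNF strains and the strains of shared subunits, with circles for the first tag, triangles for the second, orange for array 1 and dark blue for array 2. Bars mark the mean of both arrays and dashed lines 2-fold. RSC9, RSC8, RSC4 and RSC1 have all 4 points together, while the points of STH1, RSC6, RSC3 and SFH1 lie on both sides of 0.

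Strains deleted for genes beside these RSC genes were compared by gene order. RSC9 (YML127W) lies on the same chromosome arm as TUB1 with 40 coding genes between, and only 2 coding genes, ERG13 and PGA3, separate it from TUB3. TUB3 encodes the minor alpha-tubulin, and its strain had the most positive ratio of all, 4.22 ± 0.32. The strains between gave 0.31 ± 0.12 for ERG13 and 0.01 ± 0.13 for PGA3. On the far side MSC1 stood at -0.08 ± 0.44, with a first tag of 0.70 and 0.88 and a second tag of -1.48 and -0.41. The means of the strains on either side of RSC9 thus lay within 2-fold of 0, although the MSC1 tags differed. RSC8 was flanked by CDC26 at -0.36 ± 0.01 and by IRC5 at -1.73 ± 2.56, RSC4 by MEH1 at 0.28 ± 0.14 and FOX2 at -0.49 ± 0.09, and RSC1 by MUP1 at -0.62 ± 0.27 and LST7 at -0.47 ± 0.28. None of these next neighbours reached 2-fold positive on either array, though PEF1, the second gene beyond RSC1, averaged 0.66 ± 0.05 with its first tag at 1.05 and 1.09. The strains of the 3 coding genes after RSC8 had low second tags on array 1, where that of RSC8 read 1.06. They stood at -4.94 for IRC5, -3.20 for OSW7 and -3.35 for SAP155, and on array 2 at 0.78, -0.05 and -0.47.

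The catalytic subunit of RSC gave contradictory tags. STH1, the ATPase, had a first tag of 1.96 on array 1 and 1.94 on array 2, similar to RSC9, while its second tag read -3.06 and -0.28. The mean of 0.14 ± 0.97 therefore describes neither tag. SFH1, the homologue of Snf5, showed the same arrangement, with a first tag of 1.02 and 0.73 and a second tag of -3.94 and -0.31 (mean -0.62 ± 1.18). In both strains the second tag was far lower on array 1 than on array 2. With the tags that were low on 1 array only left out, a choice made after seeing the data, STH1 averaged 1.40 and SFH1 0.62. That choice drops low values only, so it could only raise both means. It leaves array 1 to the first tag alone, while array 2 keeps both tags.

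In RSC6 and RSC3 the first tag was the lower one, also on both arrays. RSC6, the homologue of Snf12, had a first tag of -1.31 and -1.85 and a second tag of 1.33 and 2.26. Its tags thus differed by 2.65 on array 1 and by 4.11 on array 2, and the mean of 0.11 ± 0.14 hides them. RSC3, a zinc cluster protein that binds DNA, had a first tag of -1.13 and -2.51 against a second tag of 1.0 and 0.68 (mean -0.49 ± 0.60). For these strains the SD between arrays understates the spread between tags.

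Counted by single tags, 6 of 13 RSC strains had a tag at least 2-fold positive on both arrays: STH1 and RSC6 beside RSC1, RSC4, RSC8 and RSC9. No counted strain of another remodeller did, and 2.1% of all strains did. Outside the counted strains, ARP4, a subunit of INO80 and SWR1, had a first tag of 1.38 and 1.24. For ARP9, shared by RSC and SWI/SNF, 1 probe pair had a first tag of 1.88 and 1.34. In the negative direction the same count gave RSC3, RSC6 and NPL6 in RSC and 5 strains elsewhere (SNF6, TAF14, ARP5, VPS72 and IOC4), 8 of 52 against 9.32% of all strains. This count was made after the values were seen, and RSC6 appears on both sides of it.

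**Figure D2:**
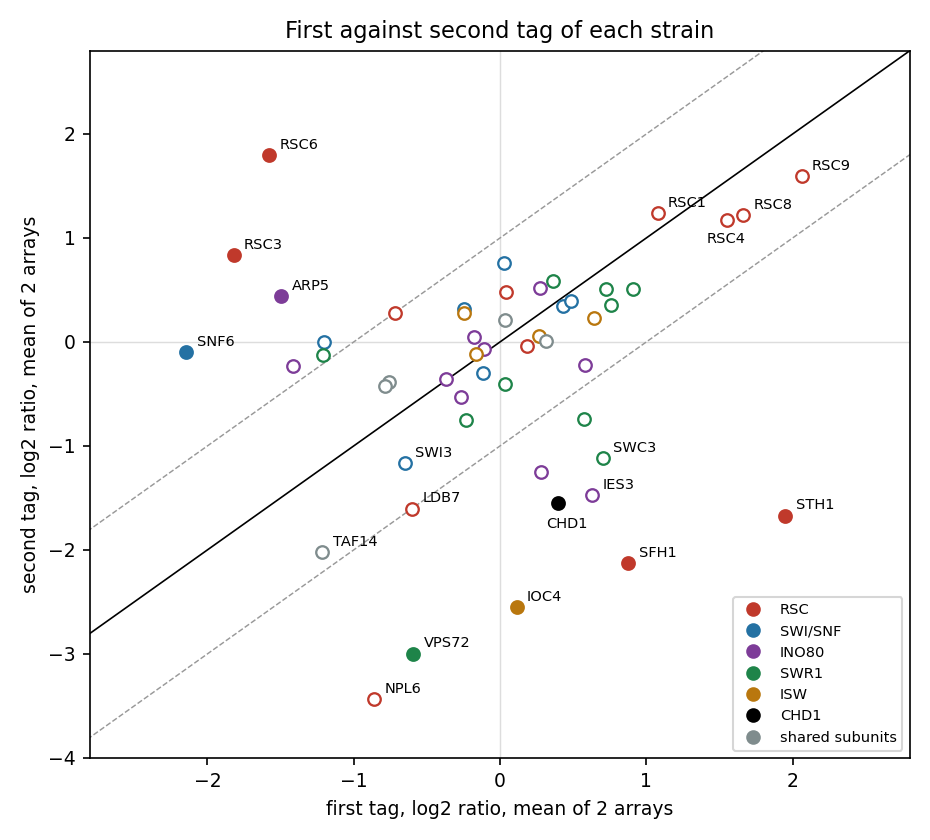
Mean log2 ratio over 2 arrays of the first tag (horizontal axis) against the second tag (vertical axis) for the 52 remodeller strains, coloured by complex. Filled circles are the 9 strains whose tags differed at least 2-fold with 1 sign on both arrays, the solid line marks equal tags and the dashed lines a 2-fold difference. RSC9, RSC8, RSC4 and RSC1 lie near the solid line at the upper right, and RSC6, RSC3, STH1 and SFH1 lie far from it on opposite sides.

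In the accessory module that Rsc3 forms with Npl6, Ldb7 and Htl1, no measured strain was positive on both arrays, where 32.7% of all strains were. NPL6, also known as RSC7, had the lowest mean of all 52 remodeller strains, -2.15 ± 0.32, with tags of -1.57 and -2.28 on array 1 and of -0.16 and -4.60 on array 2. All 4 values were negative, but the first tag was close to 0 on array 2 where the second was lowest. The strains of the genes on either side, YMR090W at 0.13 ± 0.43 and AIP1 at 0.40 ± 0.11, had positive means. LDB7 read 0.00 and -3.52 on array 1 and -1.21 and 0.32 on array 2 (mean -1.10 ± 0.93), so that each tag was low on a different array. HTL1 stood at -0.22 ± 0.39, with 1 low value, -1.44 for the first tag on array 1.

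RSC2 and RSC58 were near 0. RSC2, the counterpart of RSC1, had tags of -0.37 and 0.27 on array 1 and of 0.46 and 0.70 on array 2, each from 6 spots (mean 0.26 ± 0.45). RSC1 exceeded RSC2 by 1.26 on array 1 and by 0.54 on array 2. RSC58, a bromodomain subunit, averaged 0.07 ± 0.23.

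The actin-related subunits Arp7 and Arp9 and their partner Rtt102 belong to both RSC and SWI/SNF. ARP7 gave -1.03 and -1.13 on array 1 and -0.49 and 0.37 on array 2 (mean -0.57 ± 0.72), and RTT102 averaged 0.16 ± 0.04. For ARP9 the array listed 2 probe pairs. The first and second tags of 1 pair read 0.95 and -2.82 on array 1 and 0.86 and -0.26 on array 2. The other pair read 1.88 and 0.55 on array 1 and 1.34 and 1.84 on array 2, all positive. Which pair belongs to the ARP9 strain was not settled here, so neither entered a count.

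SWI/SNF strains lay on both sides of 0 and none reached 2-fold positive in any tag. Among 8 strains 3 were positive on both arrays, where 32.7% of all strains were, and 4 negative, where 41.7% were. SNF2, the founding ATPase, read -0.34 and 0.24 on array 1 and -0.15 and 0.39 on array 2, from 6 spots per tag (mean 0.03 ± 0.12). The highest were SNF5 at 0.44 ± 0.17, with tags reading 0.69 and 0.43 on array 1 and 0.27 and 0.36 on array 2, and SNF11 at 0.39 ± 0.55, whose first tag was -0.67 on array 1 and 0.72 on array 2 beside 0.68 and 0.84 for the second. SWI1, an ARID-domain subunit, averaged 0.39 ± 0.29 with all 4 values positive, from 0.11 to 0.60.

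At the lower end of SWI/SNF stood SNF6 and SWI3. SNF6 averaged -1.12 ± 0.39. Its first tag read -1.44 and -2.85 and its second -0.24 and 0.05, so the mean rested on the first tag. The 6 spots of the first tag on array 2 lay between -3.14 and -2.43, far from those of the second tag, which lay between -0.12 and 0.25. SWI3 had -0.79 and -1.53 on array 1 and -0.52 and -0.81 on array 2 (mean -0.91 ± 0.35), negative in all 4 values. SNF12 averaged -0.61 ± 0.37, with a first tag of -1.88 and -0.53 and a second of 0.15 and -0.16, and SWP82 averaged -0.21 ± 0.18.

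The medians of RSC and SWI/SNF were set side by side. The median log2 ratio was 0.11 over 13 RSC strains (-0.07 on array 1 and 0.24 on array 2) and -0.09 over 8 SWI/SNF strains (-0.07 and -0.11), against -0.09 over all strains. RSC minus SWI/SNF was 0.00 on array 1 and 0.35 on array 2. By single tag the RSC median was above that of SWI/SNF in all 4 values. The difference was 0.50 and 0.68 for the first tag on arrays 1 and 2 and 0.25 and 0.60 for the second. The RSC medians were 0.00 and 0.46 for the first tag and 0.44 and 0.68 for the second, against 0.00 over all strains. Those of SWI/SNF were -0.50 and -0.22 for the first tag and 0.19 and 0.08 for the second. These 4 differences come from the same strains on 2 arrays. RSC was spread more widely, from -2.15 to 1.83, than SWI/SNF, from -1.12 to 0.44. RSC reached further than SWI/SNF at either end, through RSC9 and NPL6. These ranges cover 13 strains against 8, and a range widens with the number of strains. With shared subunits counted in, SWI/SNF reached down to -1.62. No test over subunits was made because subunits are not replicates.

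Homologous subunits of the 2 complexes were compared by array. RSC8 exceeded SWI3 by 2.49 on array 1 and by 2.21 on array 2, a difference of 2.35 ± 0.20, the widest of 4 such pairs in either direction. RSC6 exceeded SNF12 by 0.72 ± 0.23, where the RSC6 tags disagreed. STH1 minus SNF2 was 0.11 ± 0.86 and SFH1 minus SNF5 was -1.06 ± 1.35, and in both the spread between arrays was larger than the difference, the second tag of STH1 and of SFH1 being low on array 1. These differences were not tested.

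**Figure D3:**
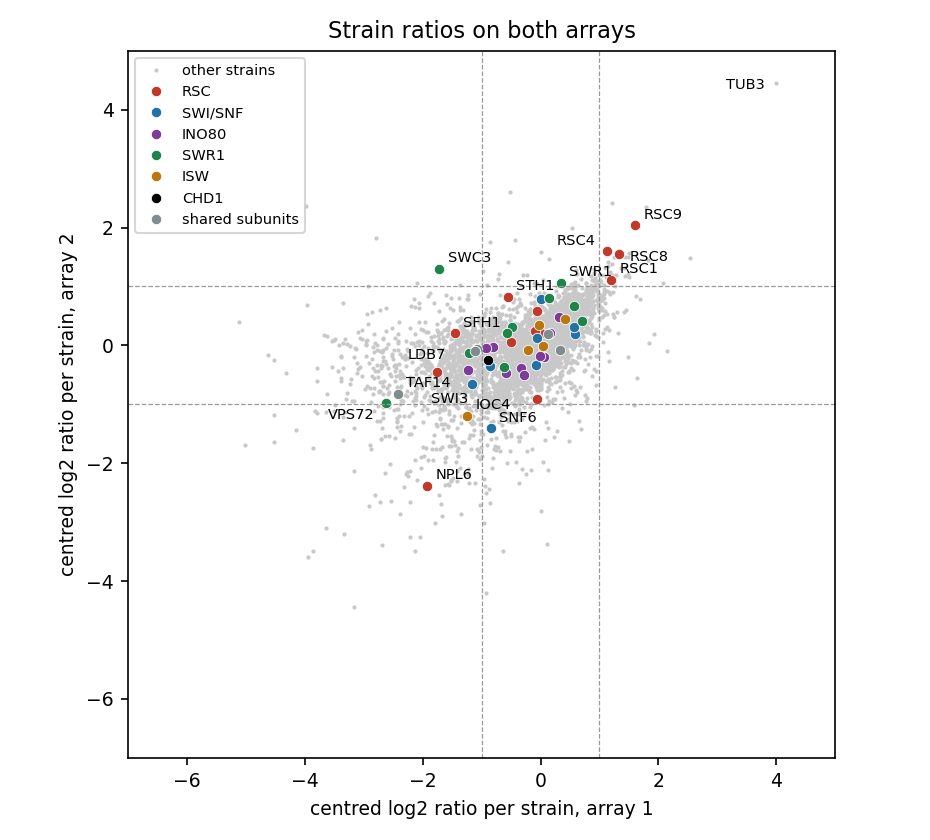
Centred log2 ratio per strain on array 1 (horizontal axis) and array 2 (vertical axis) for 5219 strains, with remodeller strains coloured by complex and dashed lines at 2-fold. RSC9, RSC8, RSC4 and RSC1 lie beyond the dashed lines at the upper right below TUB3, NPL6 and IOC4 lie beyond them at the lower left, and SWC3 has opposite signs on both arrays.

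INO80 strains mostly had slightly negative means. Of 10 strains, 7 were negative and 2 positive on both arrays, where 41.7% and 32.7% of all strains were. Their median was -0.38, from -0.31 on array 1 and -0.19 on array 2, against -0.09 over all strains. By single tag the median was 0.08 and -0.35 for the first tag on arrays 1 and 2 and -0.36 and -0.07 for the second. INO80 itself, the ATPase, had the most even tags of the list, -0.33 and -0.33 on array 1 and -0.41 and -0.37 on array 2, for a mean of -0.36 ± 0.04. NHP10, an HMG-box protein, was highest at 0.39 ± 0.12, with 0.17 and 0.45 on array 1 and 0.38 and 0.58 on array 2. IES1 followed at 0.18 ± 0.04, although its tags on array 1 were 0.90 and -0.59 and those on array 2 were 0.26 and 0.15.

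IES4 and ARP5 were the lowest INO80 strains. IES4 averaged -0.83 ± 0.57, with -2.06 and -0.39 on array 1 and -0.77 and -0.08 on array 2, all negative. ARP5, an actin-related subunit, averaged -0.53 ± 0.08, but its first tag read -1.72 and -1.28 and its second 0.54 and 0.33. Its partner IES6 was near 0, at -0.09 ± 0.12, as was ARP8, another actin-related subunit, at -0.07 ± 0.18. IES2 averaged -0.40 ± 0.16. IES3 (-0.42 ± 0.55) and IES5 (-0.49 ± 0.62) each owed their mean to the second tag on array 1, at -2.62 and -2.35, while the other 3 values of each lay between -0.33 and 0.99. With such tags left out, a choice that drops low values only, the INO80 median was -0.08.

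The AAA+ ATPases Rvb1 and Rvb2 are shared by INO80 and SWR1. RVB1 averaged 0.12 ± 0.30, with 0.13 and 0.53 on array 1 and -0.06 and -0.11 on array 2. RVB2 averaged -0.61 ± 0.72, with -1.44 and -0.80 on array 1 against -0.14 and -0.06 on array 2, so that array 1 alone was low. TAF14, a YEATS-domain protein shared by SWI/SNF, INO80 and general transcription factors, averaged -1.62 ± 1.13. Its first tag was -1.19 and -1.24, and its second read -3.65 on array 1, where 6 spots had an SD of 1.05, and -0.40 on array 2.

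**Figure D4:**
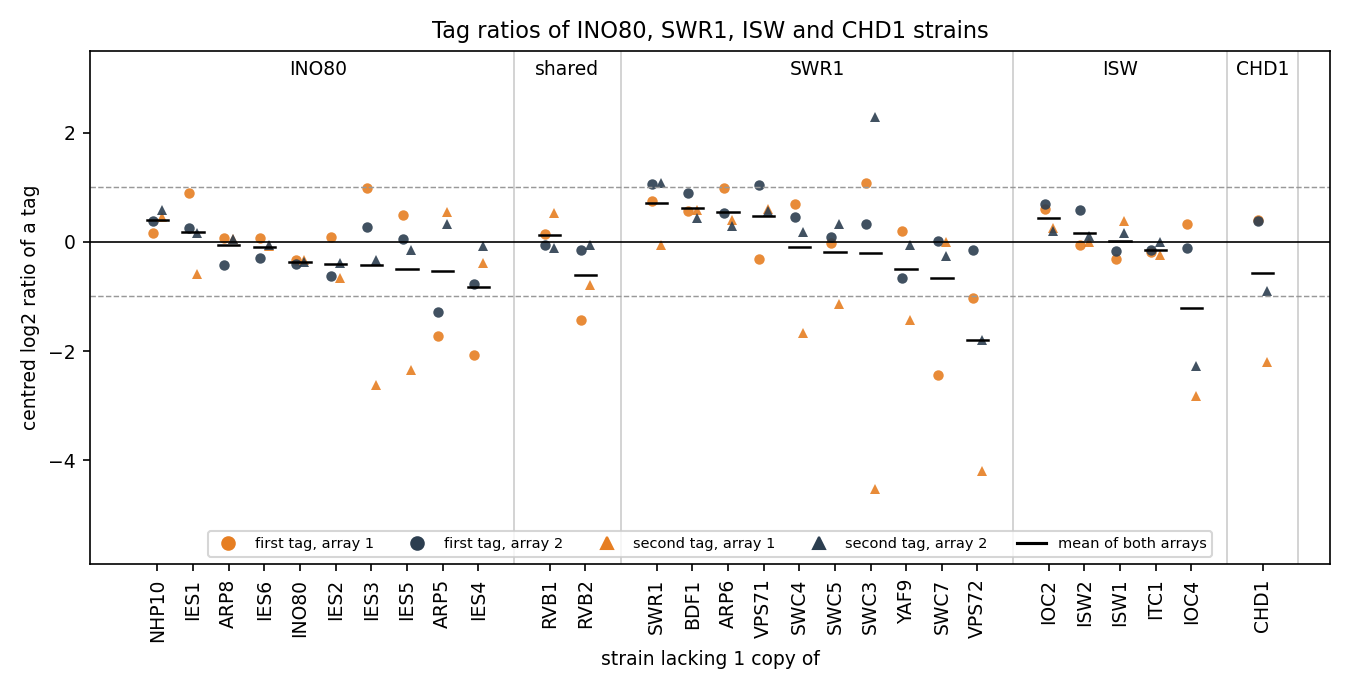
Centred log2 ratio (vertical axis) of each tag of the INO80, SWR1, ISW and CHD1 strains and of RVB1 and RVB2, with circles for the first tag, triangles for the second, orange for array 1 and dark blue for array 2. Bars mark the mean of both arrays and dashed lines 2-fold. Most points lie within 2-fold of 0, and most of the points far below it are second tags on array 1.

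The median of the SWR1 strains differed in sign between arrays. Over 10 strains it was -0.13, from -0.53 on array 1 and 0.37 on array 2. It stood at 0.47 with the first tag alone, at -0.27 with the second, and at 0.49 with tags low on 1 array only left out, a choice made after seeing the data. That choice drops low values only. Both arrays were positive in 4 strains (32.7% of all strains) and negative in 3 (41.7% of all strains), while SWC3, SWC4 and SWC5 changed sign. SWR1, the ATPase, was the highest at 0.70 ± 0.51, with 0.75 and -0.06 on array 1 and 1.06 and 1.07 on array 2. BDF1, a bromodomain protein that also works with TFIID, averaged 0.61 ± 0.07 from 6 spots per tag, with 0.56 and 0.58 on array 1 and 0.89 and 0.43 on array 2. All 4 BDF1 values were positive and both arrays close.

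ARP6 averaged 0.55 ± 0.20 with all 4 values positive, and VPS71, a zinc-finger subunit also known as SWC6, averaged 0.47 ± 0.47. VPS72, also known as SWC2, which binds Htz1, had the lowest ratio of the SWR1 strains at -1.80 ± 1.16. Its first tag read -1.03 and -0.16 and its second -4.20 and -1.79, all 4 negative but far apart. SWC7 averaged -0.67 ± 0.77, the first tag reading -2.44 and 0.01 and the second 0.00 and -0.26, so that 1 value set the mean.

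SWC3 was the most discordant remodeller strain between arrays. Its first tag read 1.08 and 0.32, while its second read -4.52 on array 1 and 2.29 on array 2 (mean -0.21 ± 2.14). SWC3 lies on chromosome I, whose 71 strains had a median second tag of -3.52 on array 1 and -0.65 on array 2, so the second tag of SWC3 was near that level on array 1 and above it on array 2. The other SWR1 strains were near 0 or slightly negative: SWC4 at -0.09 ± 0.57, SWC5 at -0.18 ± 0.55 and YAF9 at -0.49 ± 0.18. SWC4 and YAF9 also belong to the histone acetyltransferase NuA4.

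The means of the ISW strains lay within 2-fold of 0, except that of IOC4. The ATPases gave 0.02 ± 0.03 for ISW1, with -0.31 and 0.38 on array 1 and -0.17 and 0.17 on array 2, and 0.16 ± 0.27 for ISW2, with -0.06 and 0.00 on array 1 and 0.59 and 0.11 on array 2. ITC1, the partner of Isw2, had -0.18 and -0.24 on array 1 and -0.14 and 0.00 on array 2 (mean -0.14 ± 0.10). IOC2, a partner of Isw1, was highest at 0.44 ± 0.02, with 0.60 and 0.24 on array 1 and 0.69 and 0.21 on array 2, positive throughout. The median of 5 strains was 0.02.

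IOC4, another partner of Isw1 with a PWWP domain, averaged -1.22 ± 0.04, but the closeness of both arrays hid a split of its tags. The first tag read 0.33 and -0.11 and the second -2.82 and -2.28. The strains of the 3 coding genes before IOC4 also had low second tags, at -2.06 and -0.72 for MCM1, -2.13 and -0.53 for ARG80 and -2.62 and -1.08 for ARA2 on arrays 1 and 2. Whether position has a part in the IOC4 value was not tested. The 2 probe pairs listed for IOC3, a further Isw1 partner, averaged -0.64 and 0.51, on opposite sides of 0. CHD1, which acts without a fixed complex, had a first tag of 0.41 and 0.39 and a second tag of -2.20 and -0.90 (mean -0.58 ± 0.45).

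Over all 52 remodeller strains, both arrays were positive in 16 and negative in 23, where 32.7% and 41.7% of all strains were. The median was -0.12, or -0.15 on array 1 and 0.03 on array 2. All 4 tag values were positive in 10 strains, where 20.4% of all strains were, and negative in 7 strains, where 20.1% were. NPL6 and IOC4 reached 2-fold negative on both arrays, 2 strains against 3.74% of all strains, and the nearest strain outside that line was VPS72, at -0.97 on the array nearer to 0. No remodeller strain was 2-fold negative in all 4 tag values, as 0.597% of all strains were. Outside RSC, 11 of 39 remodeller strains were positive on both arrays, where 32.7% of all strains were. None of the 39 was 2-fold positive on both arrays, as 0.728% of all strains were. The median of those 39 was -0.18, against -0.09 over all strains.

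Tags disagreed in 9 of 52 remodeller strains: STH1, RSC3, RSC6, SFH1, SNF6, ARP5, VPS72, IOC4 and CHD1. Disagreement means a difference of at least 2-fold with 1 sign on both arrays, and it held for 9.55% of all strains. RSC had 4 of these 9. In limma's test of the difference between tags 0 strains passed, in the remodellers and in the pool (0%). The smallest adjusted p was 0.444, shared by 248 strains, with RSC3, RSC6, ARP5 and IOC4 among them. An unadjusted p under 0.05 was found in 7 remodeller strains and in 10.1% of the pool. Across the 52 strains the same tag on different arrays had a Spearman rho of 0.70 for the first and 0.65 for the second tag, and the means of the first and second tags had a rho of 0.20, against 0.32 in the pool. These are descriptions over strains that share arrays and labelling.

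Tags that were low on 1 array only were counted. A tag at or under -1.5 on 1 array and above -0.5 on the other was found in 10 remodeller strains (STH1, SFH1, NPL6, LDB7, TAF14, IES3, IES5, SWC3, SWC4 and SWC7), against 14.7% of all strains. The second tag on array 1 was such a tag in 8 of the 52 remodeller strains (15.4%), against 7.74% of all strains. In NPL6 and SWC7 (3.85% of the 52) it was the first tag on array 1, against 6.59% of all strains. On array 2 no remodeller strain had such a tag. RSC9, RSC8, RSC4 and RSC1 had no such tag.

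Related genes outside the list were given the same reading. Of 10 other ATPases of the Snf2 family, both arrays were positive in 3 and negative in 6, where 32.7% and 41.7% of all strains were. Their median was -0.32, and they ranged from IRC5 at -1.73 to IRC20. IRC20, a helicase-like ubiquitin ligase, averaged 0.996 ± 0.60 and read 1.16 and 1.68 on array 1 and 0.76 and 0.39 on array 2. Among 5 further subunits and partners, HTZ1, which encodes the variant that SWR1 deposits, averaged 0.33 ± 0.03 with all 4 values positive. ARP4, a subunit of INO80, SWR1 and NuA4, had a first tag of 1.38 and 1.24 and a second tag of -2.13 and -0.65, the same split as STH1. None of these strains passed limma, with adjusted p-values from 0.241 to 0.992.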

How the data were processed

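The authors deposited a log2 ratio for each spot, since 100% of the values were the log2 of a ratio with 2 decimals. Per the labels, a GenePix 4000B scanner and the GenePix 5.1 program produced the data. How the authors corrected background, normalized and oriented the ratio is not given in the sources used here. An implausibly high filled-in ratio (2 values) was treated as missing. Probes were named through the platform annotation and neighbours through the R64 RefSeq gene table, from which only names and gene order were taken. Symbols with other than 1 or 6 probes per tag set (105) were left out.

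Spots were averaged per tag, the median of each tag set on each array was subtracted, and a strain's value was the mean of its tags. Strains were tested against 0 across all strains with limma 3.58.1 in R 4.3.3 (lmFit, eBayes, two-sided, Benjamini-Hochberg, threshold 0.05). The difference between tags was tested likewise. The code of the test against 0 was run on simulated data, where a result was required only at a noise SD of 0.05. Tables used Python 3.11.15 and pandas 2.3.3. Members, lists and tests were chosen with earlier results of these data known. Named strains were those at least 2-fold from 0, the ATPases, the 2 highest and 2 lowest of each complex, homologues and strains with disagreeing tags, with the other members summarised. Alternatives were centring, quantile normalization, spot medians, the smallest ratios as missing, single tags, random blocks and leaving out each array.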

Additional observations from a re-analysis of the deposited data

How the results depend on the processing

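The count of 4 positive 2-fold strains was between 4 and 6 under every alternative run, and limma called 0 remodeller strains except with the array as a random block (5 positive and 1 negative). The 2 negative 2-fold strains became 5 with the first tag alone and 6 at a 1.5-fold threshold, and between 3 and 12 with 1 array left out. Disagreeing tags numbered 4 at a difference of 2 on the log2 scale, and between 12 and 23 on single arrays. The RSC median was 0.48 with the second tag alone. The SWI/SNF median was -0.17 without centring, -0.055 with spot medians, -0.18 and 0.15 with the first and second tag alone, and -0.21 with shared subunits counted in. The INO80 median was -0.25 after quantile normalization, -0.14 and -0.23 with the first and second tag alone, -0.078 with tags low on 1 array only left out, and from -0.31 to -0.19 with 1 array left out. The ISW median was -0.066 without centring, 0.11 and 0.057 with the first and second tag alone, -0.026 with IOC3 counted in, and from -0.032 to -0.0027 with 1 array left out. CHD1 stood at 0.40 with the first and -1.55 with the second tag alone, and IOC4 turned to 0.11 with the first tag alone. Of 52 single strains the sign turned in 11 with the first tag alone, in 7 with the second and in 3 without centring. The causes of these shifts were not tested. No paired analysis was possible because there is 1 group. Precision is limited by 2 arrays, and signal over background was not used here.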
